A study of Mus musculus with 21 samples.

Results

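Alternative 3' splice sites are acceptor sites that compete for the same 5' splice site, so that an exon starts at an upstream or at a downstream position. The 3586 pairs described here were taken from the mouse annotation GENCODE vM1 on the genome build mm9. A pair holds 2 annotated 3' sites joined to the same 5' site in transcripts of a gene, where the longer exon spans the downstream site. The annotation held 5876 such pairs among 23236 splice events of 3 kinds, the others being alternative 5' sites and cassette exons. A pair counted as expressed where the transcripts using its 2 sites summed to at least 1 TPM (transcripts per 1000000) in every library of a cell type. That held for 3122 pairs in md cells and 3260 in ES cells, and for 2796 in both. The pairs lay in 2420 genes, of which 735 held more than 1 pair, and some pairs shared a site or a transcript.

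RBM10 is an X-linked RNA-binding protein of the spliceosome. The study mapped its contacts by iCLIP, in which ultraviolet light links protein to RNA and the linked nucleotide is read by sequencing, and compared splicing with and without Rbm10 by RNA-seq. The iCLIP came from the line md MEPA, made from the mandibular part of the pharyngeal arch of embryos of CD1 mice crossed with Immortomouse, at 11.5 days post coitum. The md cells of iCLIP and RNA-seq were grown at 33 °C with murine interferon at 100 U per ml, and those for iCLIP were irradiated with 400 mJ per cm2 at 254 nm. It comprised 4 libraries with an antibody to both RBM10 isoforms and 4 with control IgG. They held 774816 to 2847066 crosslinks with RBM10 and 103017 to 2214515 with IgG. The RBM10 libraries were run on 1 lane and the controls on another, so antibody and lane cannot be told apart. The RNA-seq of polyadenylated RNA held 4 Rbm10 knockout (KO) clones of md cells made with CRISPR/Cas9. The deletion lies in exon 3 in KO1 and KO2, and in exon 9 in the other 2 clones. The clones were set against 3 wild-type (WT) md libraries. In ES cells, 3 libraries of the male gene-trap line Rbm10Gt(CSI176)Byg, which is 1 clone, were set against 3 of the parental line E14Tg2a.4. The labels do not say that the md WT libraries, or the ES libraries of a line, came from separate cultures. The spread that a p-value is read against may therefore be technical.

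A 3' splice site ends in the bases AG and follows a branch point and a stretch rich in pyrimidines. The U2AF heterodimer reads the stretch and the AG, SF1 and then the U2 particle occupy the branch point, and the AG itself is chosen in the second step of splicing. Where a pair of AGs lies 3 nt apart (a NAGNAG acceptor), the choice adds or removes 1 codon. RBM10 is known to bind near 3' splice sites and to promote the skipping of exons.

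The sequences below show the acceptors that the later results turn on, read from mm9 and printed 5' to 3', with the last 2 intron bases of each annotated 3' site in capitals. The first 6 are NAGNAG acceptors, where the sites are 3 nt apart.
Per3, chr4:150387035-150387053, minus strand: ggttatcatcAGcAGggtc
Ccdc163, chr4:116381833-116381851, plus strand: ttttttttgtAGcAGagtt
Grhl2, chr15:37274396-37274414, plus strand: tgtcctctccAGcAGcagc
Dzip1l, chr9:99563933-99563951, plus strand: ttggtctctcAGcAGcacc
Lig3, chr11:82601118-82601136, plus strand: ttctctcaccAGcAGcaaa
Pprc1, chr19:46142496-46142514, plus strand: cccccctgccAGcAGcatt
Ybx1, chr4:118951801-118951828, minus strand: gagattatgtAGcattcatttcAGgggc
Fam160a2, chr7:112537435-112537463, minus strand: aaccctccttAGgtgctggccacAGggct
Glyr1, chr16:5021520-5021553, minus strand: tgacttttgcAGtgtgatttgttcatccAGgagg
Mrpl55, chr11:59018025-59018061, plus strand: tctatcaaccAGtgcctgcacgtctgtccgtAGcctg
Elf2, chr3:51068925-51068976, minus strand: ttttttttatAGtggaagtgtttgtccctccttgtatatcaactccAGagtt
Trp53, chr11:69404744-69404855, plus strand: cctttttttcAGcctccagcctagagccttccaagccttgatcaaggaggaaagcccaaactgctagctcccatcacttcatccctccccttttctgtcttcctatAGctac
Cpsf4 has 4 annotated sites after a shared 5' site, and its sequence carries 4 pairs of capitals.
Cpsf4, chr5:145939615-145939708, plus strand: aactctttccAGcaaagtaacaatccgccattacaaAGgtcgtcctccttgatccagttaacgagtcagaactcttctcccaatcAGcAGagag
The bases between the capitals belong to the exon when the upstream site is used and to the intron when the downstream site is used. The stretch between the sites of each pair lies between the first and last coding base of an annotated protein-coding transcript. That does not show that all of it is translated.

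The knocked-out gene was read first. Rbm10 stood at 4.27, 3.63 and 4.25 TPM in the ES KO libraries and at 32.5, 33.5 and 32.2 TPM in the ES WT libraries. In md cells it stood at 23.2, 19.7, 7.20 and 3.49 TPM in clones KO1 to KO4 and at 21.4, 23.2 and 23.7 TPM in the WT libraries. The 2 clones with the exon 3 deletion were thus at or near the WT level of Rbm10 RNA, and the 2 with the exon 9 deletion were below it. A gene total does not show whether a deleted exon is missing, so the RNA level does not check the exon 3 label. Pou5f1, which marks ES cells, was at 553 to 683 TPM in the ES libraries and at 0 in the md libraries. Of the other ES markers, Zfp42 was at 0 in md cells and Esrrb at 0 to 3.09 TPM. Nanog was at 0.696 to 1.85 TPM in md and 165 to 344 in ES cells, and Sox2 at 3.25 to 15.3 and 166 to 263. The mesenchyme genes Twist1 (18.3 to 37.6 TPM), Prrx1 (47.3 to 90.2) and Col1a1 (174 to 799) were expressed in md cells, while the arch markers Hand2 (0) and Dlx5 (0 to 0.231) were at or near 0. A further arch marker, Msx1, was at 0.813 to 6.93 TPM in md and 0.24 to 2.21 in ES cells. Epcam, Ptprc and Myod1 were at 0 in md cells, and the neuronal marker Tubb3 was at 15.5 to 41.6 TPM. TPM carries no read depth, so the depth behind the RNA-seq values is unknown.

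Close sites were used differently from wide ones. PSI is the share, in percent, of the TPM of a pair's transcripts that use the upstream site. Pairs up to 12 nt apart, called close below, numbered 911 in md cells, and the 2211 wider pairs had a median distance of 59 nt. The median PSI of close pairs was 63.3 to 65.1% across the md WT libraries, against 45.9 to 47.0% for wide pairs. In ES WT libraries it was 65.9 to 69.1% against 45.7 to 46.4%. The library ranges of the classes did not overlap in either cell type. As classes, close pairs favoured the upstream AG in every WT library and wide pairs slightly favoured the downstream one. The wide class was mixed, and its 934 md pairs 31 to 100 nt apart favoured the upstream site. Their md WT library medians were 59.6 to 61.7%, above the 57.4 to 58.1% of pairs 3 nt apart. The median varied from distance to distance on both sides of the border, from 94.5% at 7 nt (18 pairs) to 41.7% at 10 nt (18 pairs) and 73.1% at 30 nt (36 pairs) in md cells. Next to the border, the median WT PSI in md cells was 61.5% for the 42 pairs at 12 nt and 41.8% for the 24 pairs at 13 nt. In ES cells it was 70.4% at 12 nt (48 pairs) and 57.3% at 13 nt (25 pairs). With the border at 30 nt the mean of the library medians of close pairs fell from 64.5 to 56.2% in md cells and from 67.5 to 58.6% in ES cells.

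**Figure D1:**
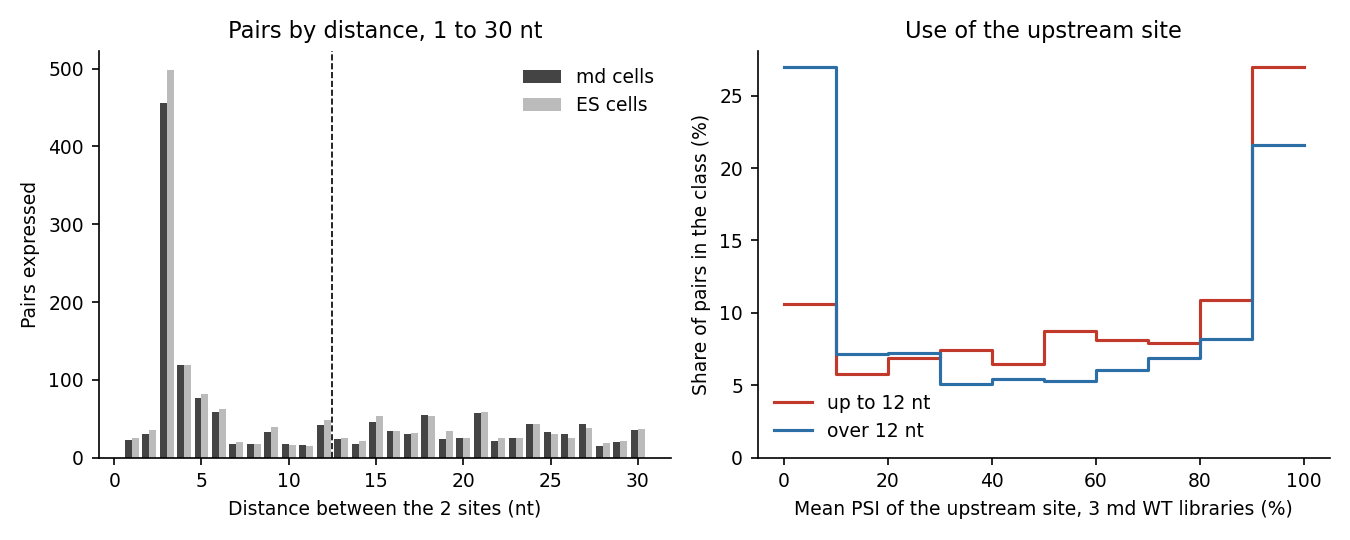
Left, number of expressed pairs (y axis) by distance between the 2 sites in nt (x axis), in md and ES cells, with a dashed line at the border between close and wide pairs. Right, share of the pairs of a class in percent (y axis) by mean PSI of the upstream site over 3 md WT libraries (x axis). Pairs 3 nt apart are the most frequent distance, 456 in md and 498 in ES cells, and 27.0% of close pairs fall at a PSI of 90% or more while 27.0% of wide pairs fall under 10%.

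Pairs 3 nt apart made up 456 of the 911 close pairs in md cells. Of 537 pairs 3 nt apart over both cell types, 519 had AG before both sites. The base before each AG went with the choice. The 206 CAG-CAG pairs, in which both AGs follow C, had a median WT PSI of 56.7% in md cells. The 39 CAG-AAG pairs stood at 79.4% and the 31 AAG-CAG pairs at 46.8%, and in ES cells these orders stood at 69.97% and 38.1%. A C before the AG is the common base of mammalian 3' sites, and an A is rarer. TAG-CAG pairs (70) had a median of 56.5%, and CAG-TAG pairs (20) 68.0%. Pairs 4 to 12 nt apart leaned further to the upstream site, with library medians of 73.9 to 75.8% in md WT cells. At 4 nt, where the choice shifts the reading frame of coding sequence, the median WT PSI was 86.7% over 119 pairs.

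The wide pairs did not lean on the downstream site in steady order of distance. In md WT cells the library medians were 39.2 to 40.2% at 13 to 30 nt and 59.6 to 61.7% at 31 to 100 nt. Pairs over 100 nt apart had the lowest, 32.0 to 33.9%. In ES WT cells the medians of these groups were 39.9 to 41.6%, 58.3 to 58.5% and 29.6 to 31.9%. Among wide pairs with a WT PSI under 20%, 33.3% had more pyrimidines before the upstream site than before the downstream one, counted from 20 to 4 nt before the site. The share was 48.1% for those between 20 and 80%, and 62.7% for those over 80%. In ES cells the same shares were 33.6, 48.6 and 61.8%. Site use and pyrimidine content thus moved in the same order in both cell types, which share most of the pairs. The distance was a multiple of 3 nt, which keeps the reading frame of coding sequence, in 64.8% of close pairs and 39.8% of wide pairs of md cells. These shares include pairs outside coding sequence, as 83.9% of close and 79.1% of wide pairs were labelled coding. Stop codons between the sites were not checked. Most pairs leaned strongly to 1 site, and 45.7% of close and 36.05% of wide pairs had a WT PSI between 20 and 80%.

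The spread of the ratio differed among highly expressed close pairs. In Ybx1, which encodes a cold-shock RNA-binding protein, sites 12 nt apart were used at 50.7, 51.0, 49.8 and 51.98% in the md KO clones and at 48.6, 48.4 and 49.6% in WT. The ratio differed by 1.98 points (SE 1.58), at a summed level of 787 TPM. Top2a, the type II DNA topoisomerase of dividing cells, kept its NAGNAG acceptor at 62.5 to 66.3% in KO and 64.8 to 69.4% in WT md cells. The values of KO and WT overlapped in Top2a. In Ybx1 the groups did not overlap, but the difference did not pass the test (adjusted p = 0.783). In ES cells Ybx1 stood at 53.7, 54.7 and 54.8% in KO and 59.2, 57.8 and 51.1% in WT, which overlap and spread more widely in WT, at a summed level of 1127 TPM. Ssb, which encodes the RNA-binding La protein, had a summed level of 242 TPM in md cells and a wider spread, with its sites 3 nt apart used at 62.0, 60.2, 63.2 and 67.9% in KO and 68.3, 65.3 and 76.3% in WT. Anxa1, which encodes an annexin, was used at 39.1 to 41.4% in KO and 38.2 to 40.8% in WT md cells at 554 TPM, and at 32.4 to 79.6% and 54.4 to 70.9% in ES cells at 3.89 TPM.

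The loss of Rbm10 in md cells was the first comparison. It asks which pairs shift when the protein that contacts their introns is missing. Of 3122 expressed pairs, 2086 had a mean PSI between 5 and 95% and were tested. The others used 1 site almost alone, 521 the upstream and 515 the downstream site. None of the 2086 was called by limma at an adjusted p under 0.05 with a difference of 10 points, and 0% of the 8223 events of all kinds were. At an unadjusted p under 0.05 there were 168 pairs, 76 with the upstream site higher in KO and 92 lower. That is a share of 8.05%, against 8.05% of all events. Of all events, 4.30% were under that p with the form of the longer exon, or the included form, higher in KO. The groups did not overlap in 179 pairs, or 8.58%, against 9.39% of all events. Neither share of the pairs was above that of all events. A difference of at least 10 points at an unadjusted p under 0.05 was seen in 66 pairs (3.16%), against 3.70% of all events. With PSI on the logit scale the count called was also 0. It was 0 too for the exon 3 clones alone and for the exon 9 clones alone against WT.

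Differences were smaller in close than in wide pairs of md cells. The median size of the difference was 2.27 points in close and 2.81 points in wide pairs, beside median standard errors of 2.87 and 3.17 points. A difference of 10 points or more was seen in 5.41% of close and 8.59% of wide pairs. Both medians lay below the standard error, so shifts of that size were not detectable here. The library medians of close pairs, 64.5 to 66.4% in KO and 63.3 to 65.1% in WT, overlapped.

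Some md pairs stood apart by value without passing the adjusted test. In Glyr1, a nucleosome-binding protein with a dehydrogenase-like fold, the upstream of 2 sites 18 nt apart stood at 57.5, 60.6, 58.2 and 60.8% in KO and 42.1, 43.5 and 41.6% in WT. All 4 clones were above all WT libraries, by 16.9 points (SE 1.76, adjusted p = 0.112). It was called only where the limits on mean PSI were dropped (adjusted p = 0.0425). In ES cells Glyr1 differed by 1.83 points (SE 4.09). The NAGNAG acceptor of Per3, a period protein of the circadian clock, stood at 86.6, 80.5, 78.9 and 83.8% in KO and 62.5, 62.5 and 68.1% in WT, at a level of only 1.51 TPM. All clones lay above WT, and the difference was 18.1 points (SE 2.62, adjusted p = 0.242). The NAGNAG acceptor of Ccdc163, which encodes a coiled-coil protein, stood at 94.6, 91.3, 85.8 and 90.1% against 75.7, 70.3 and 71.8%, again without overlap.

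Other md pairs had lower upstream use in KO. The zinc finger gene Zfp707, with sites 30 nt apart, stood at 52.9, 52.2, 47.8 and 51.2% in KO and 69.0, 72.2 and 69.2% in WT, a difference of -19.1 points (SE 2.00, adjusted p = 0.112). Supv3l1, a mitochondrial RNA helicase, stood at 76.7 to 82.9% in KO and 90.3 to 93.0% in WT. Rpap2, a phosphatase of the RNA polymerase II tail, stood at 78.9 to 86.2% and 95.1 to 96.8%. Banp, a nuclear matrix protein, stood at 57.3 to 62.9% and 70.3 to 75.5%. Suv420h2, a histone H4 lysine methyltransferase, stood at 76.6 to 85.3% and 88.9 to 93.6% at its pair 4 nt apart, and Cntln, a centrosomal protein, at 28.5 to 40.6% and 44.4 to 49.01%. The groups did not overlap in any of these 6 genes, and none was called. The intron before the upstream site held from 0 (Cntln) to 27 (Zfp707) RBM10 crosslinks over the 4 libraries. Zfp579 went the other way over a wide pair, with 29.2, 48.8, 38.6 and 50.8% in KO and 19.8, 11.6 and 12.2% in WT, at 2.90 TPM.

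In ES cells 2 of 1995 tested pairs were called, both with more use of the upstream site in KO. They were Elf2, an ETS family transcription factor, and Cpsf4, a zinc finger subunit of the complex that cleaves and polyadenylates messenger RNA. Of the 7481 events of all kinds, 0.120% were called. At an unadjusted p under 0.05 there were 221 pairs, or 11.1%, against 13.2% of all events, and 362 pairs, or 18.1%, did not overlap between groups, against 19.6%. Neither share of the pairs was above that of all events. Among wide pairs the upstream site was higher in KO in 96 and lower in 57 of those under an unadjusted p of 0.05, and among close pairs in 29 and 39. Among those that also differed by 10 points or more, 68 wide pairs were higher and 34 lower, and 16 close pairs were higher and 20 lower. Together that is 138 pairs (6.92%), against 8.61% of all events. Of all events, 7.31% had the form of the longer exon, or the included form, higher in KO at an unadjusted p under 0.05. The library medians of wide pairs were 47.2 to 47.8% in KO and 45.7 to 46.4% in WT. They did not overlap, while those of close pairs did (66.7 to 68.6% against 65.9 to 69.1%). The ES KO line is 1 clone, so clone and genotype cannot be told apart.

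Elf2 chose between sites 36 nt apart. The upstream site follows a run of T bases and ends in TAG, and the downstream site ends in CAG. In ES cells its PSI was 74.2, 68.5 and 66.6% in KO and 41.0, 35.5 and 36.1% in WT. Every KO library was above every WT library, by 32.2 points (SE 3.01, limma adjusted p = 0.0345). In TPM the upstream form stood at 11.2 ± 0.198 in KO and 5.84 ± 0.798 in WT (SD, n = 3 each), and the downstream form at 4.88 ± 0.888 and 9.71 ± 1.24. The sum of the forms thus differed little while their order turned over. In md cells PSI was 44.7, 55.5, 50.7 and 62.3% in KO and 29.3, 35.8 and 34.6% in WT, also without overlap, and the difference of 20.1 points (SE 4.24) had an adjusted p of 0.306. The ES call was lost without any 1 of the 6 libraries (adjusted p 0.0536 to 0.195). The intron before the upstream site held 2, 8, 5 and 4 RBM10 crosslinks in the 4 libraries and 0, 1, 0 and 0 with IgG, too few to test.

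Cpsf4 chose among 4 sites within 78 nt, which gives 6 overlapping pairs that share transcripts and are not independent. In ES WT cells the first site was the least used, with 4.98 ± 1.31% of the TPM from the shared 5' site. It had 18.8 ± 2.75% in KO (SD, n = 3 each). The last site had 32.4 ± 2.51% in WT and 17.4 ± 1.76% in KO, the second stood at 39.9 ± 3.08% in KO and 33.1 ± 1.74% in WT, and the third at 23.9 ± 2.46% and 29.5 ± 1.25%. Use thus sat further upstream in KO. In md cells the first site had 17.99 ± 4.55% in KO (n = 4) and 10.8 ± 1.86% in WT (n = 3), but the second site had 18.4 ± 4.34% and 25.2 ± 2.88%.

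The called pair joins the first and last Cpsf4 sites, 78 nt apart. Its PSI was 45.1, 53.6 and 56.6% in ES KO and 16.7, 10.7 and 12.4% in ES WT, a difference of 38.5 points (SE 3.68, limma adjusted p = 0.0345). Every KO library was above every WT library. In md cells the pair stood at 26.2, 39.5, 35.7 and 27.2% in KO and 20.5, 26.3 and 17.5% in WT, where clone KO1 overlapped the highest WT library. That difference was 10.7 points (SE 4.00, adjusted p = 0.530). The ES call was kept without ES KO replicate 1 (adjusted p = 0.0473) and lost without any 1 of the other 5 libraries, with adjusted p up to 0.195.

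**Figure D2:**
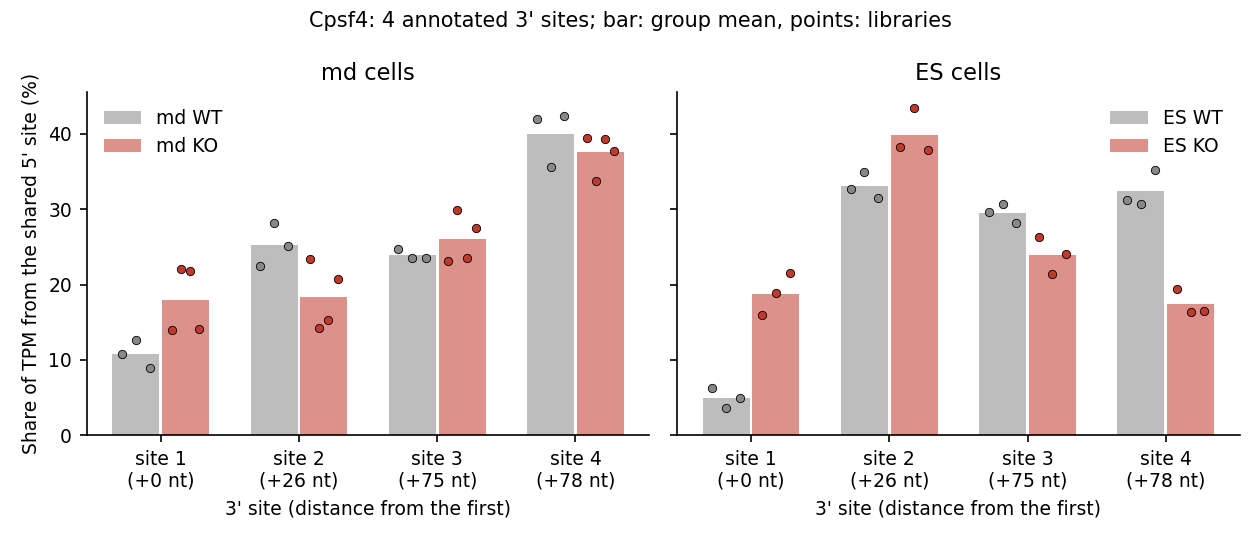
Share of TPM from the shared 5' site of Cpsf4 (y axis, percent) at its 4 annotated 3' sites (x axis, with the distance from the first site in nt), in md cells and in ES cells. Bars are group means for KO and WT and points are libraries. In ES cells the first site stands at 4.98% in WT and 18.8% in KO and the last at 32.4 and 17.4%, while in md cells the second site is the lower one in KO (18.4 against 25.2%).

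Trp53 came next in ES cells. It encodes the p53 tumour suppressor, and the upstream of its sites 96 nt apart gives a known form with another C-terminal end. PSI was 47.1, 42.8 and 43.3% in KO and 24.2, 25.6 and 25.4% in WT, at a summed level of 375 TPM. Every KO library was above every WT library, and the difference was 19.3 points (SE 2.25, adjusted p = 0.0627). Cdk9, the kinase that releases paused RNA polymerase II, stood at 15.4, 17.0 and 16.6% in ES KO and 2.99, 0.337 and 3.74% in ES WT. In md cells it stood at 7.27, 21.3, 18.6 and 12.55% in KO and 2.63, 1.41 and 2.87% in WT. KO and WT were apart in either cell type, and the adjusted p values were 0.0900 and 0.438. Its upstream intron window held 1 RBM10 crosslink, and the window before its downstream site held 23.

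Mrpl55, a protein of the large mitochondrial ribosomal subunit, stood at 52.7, 53.0 and 56.6% in ES KO and 39.9, 38.9 and 37.5% in ES WT for its pair 21 nt apart. The groups did not overlap (difference 15.4 points, SE 2.24, adjusted p = 0.0900). Among NAGNAG acceptors in ES cells, Grhl2, an epithelial transcription factor, stood at 79.7, 90.2 and 92.4% in KO and 55.8, 66.1 and 54.0% in WT, a difference of 28.8 points (SE 4.79, adjusted p = 0.110). Dzip1l, a protein of the base of cilia, went the other way with 9.71, 10.2 and 18.5% in KO and 29.4, 36.9 and 31.7% in WT. Its level in ES cells was only 1.40 TPM. Lig3, a DNA ligase of mitochondria and of DNA repair, stood at 61.4, 58.0 and 58.8% in KO and 75.5, 69.7 and 76.1% in WT. These acceptors share the letters CAGCAG at the sites, as the sequences above show, yet Grhl2 was higher and Dzip1l and Lig3 lower in KO. Ccdc93 stood at 78.8 to 88.2% in ES KO and at 100% in all ES WT libraries, at 2.94 TPM. Zfand2b, a zinc finger protein linked to the proteasome, stood at 48.9, 47.0 and 45.7% in KO and 36.9, 35.3 and 33.7% in WT. The wide pair of Npr1, a natriuretic peptide receptor, was at 100% in all ES KO libraries and at 80.8, 85.9 and 78.4% in WT, at 2.85 TPM. For these NAGNAG acceptors and for Npr1 the groups did not overlap. In md cells Dzip1l, at 9.36 TPM, differed by -0.775 points (SE 3.07) and Lig3 by 0.999 points (SE 2.58).

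**Figure D3:**
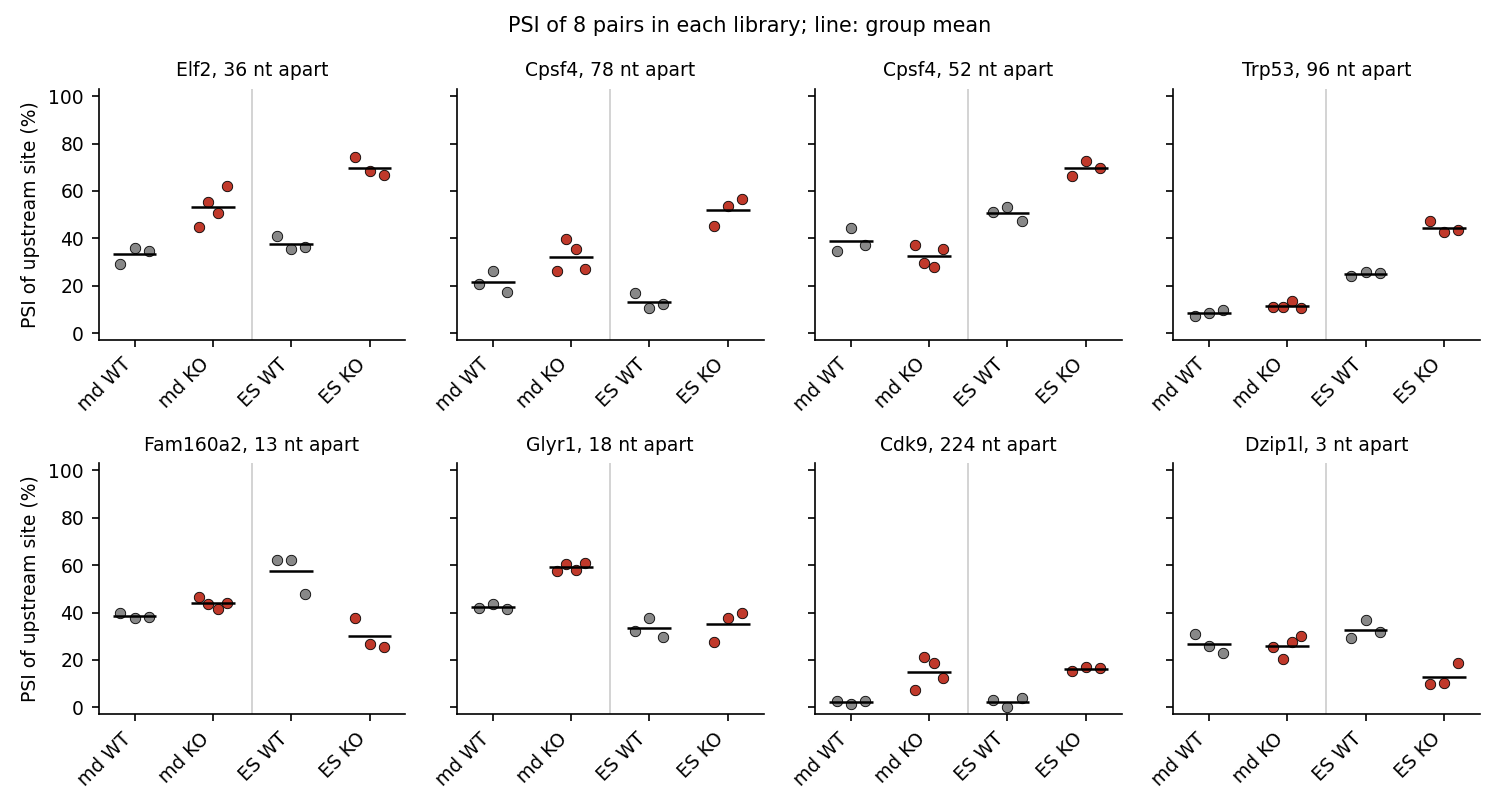
PSI of the upstream site in percent (y axis) for 8 pairs, 1 panel each, in every md and ES library of KO and WT (x axis). Points are libraries and lines are group means. Elf2 is higher in KO in both cell types, 53.3 against 33.2% in md and 69.8 against 37.5% in ES cells, while the md KO libraries of Trp53 reach at most 13.4%.

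A total of 1469 pairs were tested in both cell types, and these were compared pair by pair. Of them 119 (8.10%) had an unadjusted p under 0.05 in md and 172 (11.7%) in ES cells. The lists shared 21 pairs in 18 genes, which is 17.6% of the md list and 12.2% of the ES list. Of these 21, 13 had the upstream site higher in KO in both, 4 lower in both, and 4 in opposite directions. Over all 1469 pairs, 54.1% had the same sign. The shared pairs were picked out after their values were seen. The 13 higher pairs were those of Mier2, Mrpl55, Tmem167, Gspt1, Hnrnpm, Hectd2, Cdk9, Elf2, Stk38l and Pfkfb1, and 3 overlapping pairs of Cpsf4. The Mrpl55 pair among them has sites 3 nt apart and is not the pair 21 nt apart described above.

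Gspt1 and Hnrnpm were among the 13 higher pairs. Gspt1, the translation release factor eRF3, stood at 81.0, 80.3, 80.3 and 80.4% in md KO and 76.0, 75.1 and 75.1% in md WT at its NAGNAG acceptor. In ES cells it stood at 79.4, 80.7 and 79.8% in KO and 67.4, 69.8 and 77.4% in WT. Hnrnpm, a splicing regulator that binds GU-rich RNA, stood at 13.1, 16.5, 17.0 and 19.4% in md KO and 10.0, 11.0 and 10.0% in md WT, and at 14.1, 16.5 and 16.3% against 8.92, 8.66 and 12.2% in ES cells. Its windows held 97 RBM10 crosslinks before the upstream site and none with IgG. The groups did not overlap in either cell type for Gspt1 and Hnrnpm, and the differences ranged from 5.10 to 8.44 points. None was called.

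The 4 lower pairs were in Scyl3, Psip1 and Usp48, which held 2 pairs at separate 5' sites. Usp48, a deubiquitinating enzyme, stood at 19.3, 15.8, 17.0 and 16.3% in md KO and 22.7, 26.1 and 22.0% in md WT at its NAGNAG acceptor. In ES cells it stood at 12.4, 20.1 and 18.2% against 29.8, 24.3 and 24.8%. Its pair 5 nt apart also lay lower in every KO library of either cell type, with differences of -6.24 points in md (SE 2.26) and -9.47 points in ES cells (SE 3.13). Psip1, the chromatin protein LEDGF, stood at 17.1, 20.6, 23.8 and 21.5% in md KO and 30.2, 29.3 and 26.2% in md WT. No pair of these 3 genes was called.

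The effects of the 2 cell types were then set against each other in 1 fit of all 13 RNA-seq libraries. The difference of effects was called for 3 of 1469 pairs, against 0.364% of all events. For Trp53 the ES effect exceeded the md effect by 16.4 points (SE 2.58, adjusted p = 0.0202). In md cells Trp53 stood at 10.9, 11.0, 13.4 and 10.5% in KO and 7.07, 8.68 and 9.78% in WT, so the KO clones were above WT there as well, by 2.96 points (SE 1.72). For the Cpsf4 pair of the second and last sites, 52 nt apart, the effects were -6.13 points in md and 19.0 points in ES cells, which differ by 25.1 points (SE 4.48, adjusted p = 0.0412). Fam160a2, a protein of the complex that links Hook adaptors to endosomes, had sites 13 nt apart and effects of opposite sign. It stood at 46.5, 43.5, 41.5 and 44.0% in md KO and 39.98, 37.6 and 38.3% in md WT, but at 37.7, 26.6 and 25.4% in ES KO and 62.0, 62.1 and 47.9% in ES WT. The effects differed by -32.7 points (SE 5.52, adjusted p = 0.0307).

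Those 3 calls depended on single libraries. The count ranged from 0 to 12 when 1 library was left out. It was 12 without ES KO replicate 1 and 5 without ES WT replicate 3. It was 0 without md KO replicate 1 or 2, any 1 of the md WT libraries, ES KO replicate 3 or ES WT replicate 2, and 1 without md KO replicate 3 or ES WT replicate 1. An effect called in ES and not in md cells, such as that of Elf2, was not shown to differ: its effects differed by 12.2 points with an adjusted p of 0.431.

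RBM10 crosslinks clustered before 3' sites. In the 100 nt of intron before the upstream site, close pairs held 1737 ± 562 crosslinks per 1000 sites and per 1000000 crosslinks of the library in RBM10 libraries and 229 ± 57.7 with IgG (SD, n = 4 each, 886 sites). Wide pairs held 2096 ± 648 and 290 ± 57.0 (2184 sites). Other 3' sites of the same genes, which belong to no pair, held 1685 ± 489 and 211 ± 36.9 (27132 sites). The 886 and 2184 sites are counted by distinct pair, so a window shared by several pairs entered once for each pair. The other 3' sites entered once each. Within each of the 4 RBM10 libraries the wide class was above both others, by 1667 against 1361 and 1402 in the first, 1424 against 1195 and 1178 in the second, 2731 against 2408 and 2265 in the third, and 2564 against 1985 and 1896 in the fourth. This order was not tested, and the classes were not matched on expression. In the first 50 nt of exon after the downstream site the mean of RBM10 lay below that of IgG. It was 173 ± 58.8 against 296 ± 23.5 for close pairs and 197 ± 49.3 against 273 ± 33.7 for wide pairs. Whether copies of a molecule had been collapsed is not stated, so crosslinks at a position need not be independent.

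The crosslinks were placed at some distance from the AG. The share of sites with a crosslink, per bin of 5 nt, was highest between 70 and 56 nt before the site in each of the 4 RBM10 libraries, for close pairs, wide pairs and other sites. Before the upstream site of close pairs it reached 9.77, 15.3, 25 and 9.55% in those libraries. Of the crosslinks in the 100 nt, 36.8 to 42.1% lay 70 to 51 nt before close upstream sites and 38.6 to 41.9% before other sites. Before wide upstream sites the share was 27.2 to 29.3%, below the other classes in every library. By crosslink number rather than by sites hit, the fullest bin of wide upstream sites was 85 to 81 nt before the site in 3 of 4 libraries. A few sites with many crosslinks thus weigh on that count, and sites shared by several pairs entered it once for each pair.

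**Figure D4:**
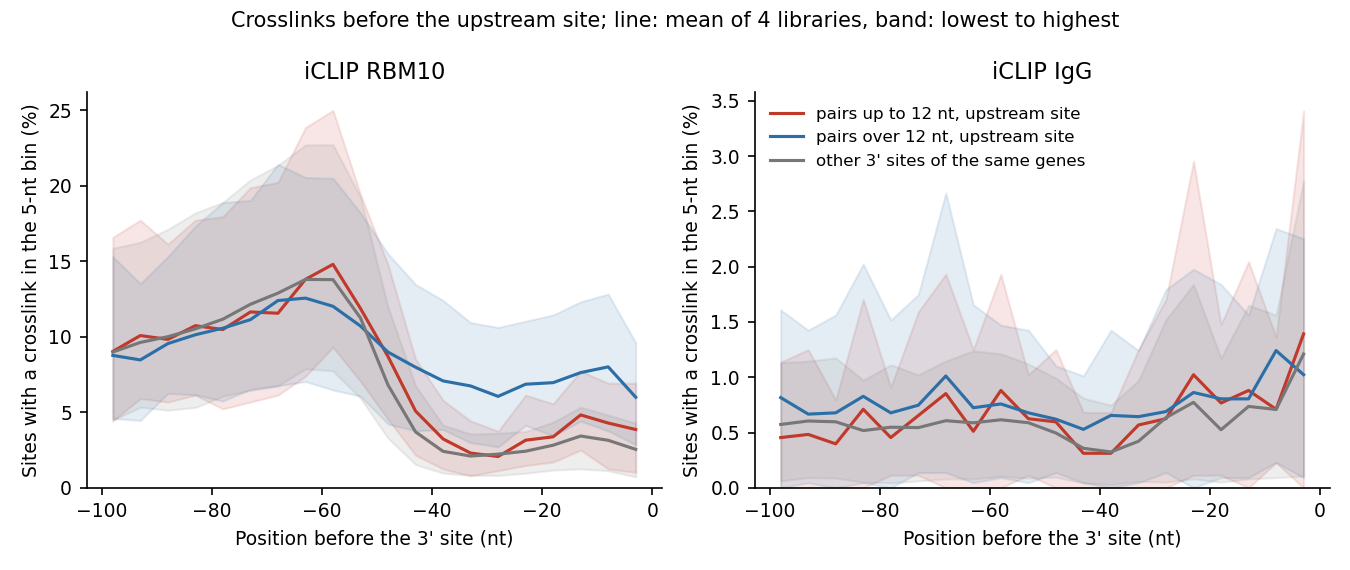
Share of sites with a crosslink in each 5-nt bin (y axis, percent) by position before the 3' site in nt (x axis), for the RBM10 and the IgG libraries. Lines are means of 4 libraries and bands run from the lowest to the highest, for upstream sites of close pairs, of wide pairs, and for other 3' sites of the same genes. The RBM10 curves of the 3 classes peak between 70 and 56 nt before the site, and nearer the site the mean of wide pairs stays above the others. The y axes of the panels differ in scale.

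Where the sites of a pair were over 100 nt apart, their windows were separate and could be compared within a pair. In the 288 pairs whose WT PSI was under 20%, crosslinks before the downstream site outnumbered those before the upstream site 2.06 to 2.24 times in the RBM10 libraries. In the 217 pairs between 20 and 80% the ratio was 1.25 to 1.47, and in the 183 pairs over 80% it was 0.420 to 0.802. Summed over pairs, RBM10 crosslinks thus lay more before the downstream site in the first class and more before the upstream site in the last. In these classes that is the site that md WT cells used most. In transcripts that use the upstream site, the 100 nt before the downstream site are exon. Intron is then set against exon, and the part of this in the ratios was not tested. With IgG the same ratios were 0.987 to 2.14, 0.889 to 2.13 and 1.88 to 4.53, and did not follow that order. Among the pairs with unequal counts before the 2 sites, the share with more RBM10 crosslinks before the upstream site was 29.0 to 33.2%, 43.4 to 52.5% and 51.6 to 68.2%. Among all pairs of the class it was 18.4 to 27.4%, 25.8 to 42.9% and 31.7 to 49.2%, where the first and second ranges overlap. Within each RBM10 library the share rose from class to class on either base, and this was not tested.

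**Figure D5:**
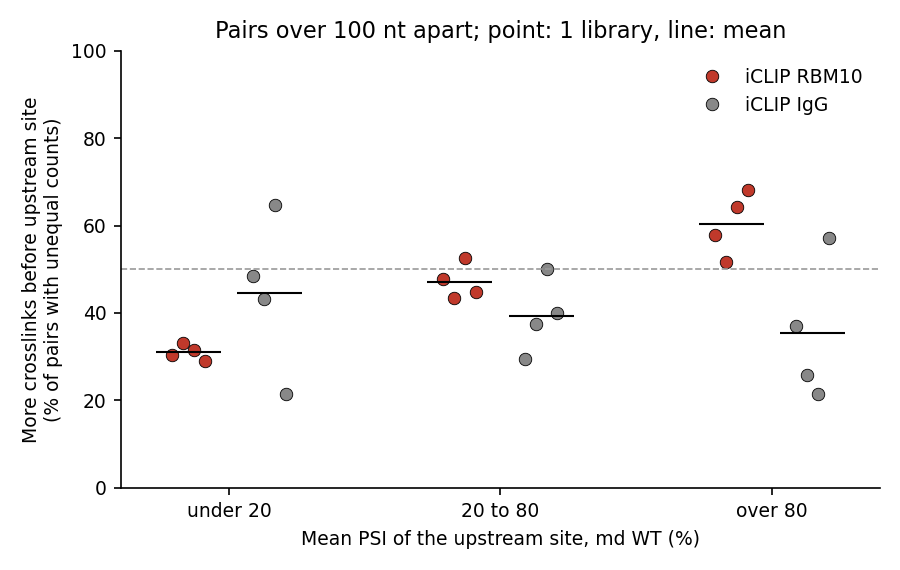
Share with more crosslinks before the upstream than before the downstream site (y axis, percent of the pairs with unequal counts), among pairs over 100 nt apart, by mean PSI of the upstream site in md WT cells (x axis, 3 classes). Each point is 1 library, lines are means of the 4 RBM10 or 4 IgG libraries, and the dashed line marks 50%. RBM10 points rise from 29.0 to 33.2% in the first class to 51.6 to 68.2% in the last, and IgG points spread from 21.4 to 64.7% in the first class, where the 2 shallowest IgG libraries hold 17 and 14 such pairs.

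Single windows were tested against IgG with edgeR over all annotated 3' sites. The count filter passed 44 windows before upstream sites of the pairs, and 42 of them (95.5%) were higher in RBM10, against 95.8% of all 1290 windows tested. In either direction 97.6% of all windows differed. A window that passes the filter mainly through the RBM10 libraries has to be higher there, so these shares describe the windows and support nothing. With every window of at least 1 crosslink, 535 of 2627 were higher, or 20.4%, against 17.5% of all. The library size here was the number of all crosslinks. With the replicate number as a block 40 of 44 were higher, against 94.2% of all windows. With TMM factors, which centre on the windows, 7 of 44 were higher (22.0% of all windows), and with DESeq2 5 of 44 (17.1%). The median of all windows was 4.51 on the log2 scale in the first scaling, 1.48 with TMM and 1.25 with DESeq2. With every window of at least 10 crosslinks admitted, 794 of 1150 were higher, or 69.0%, against 73.9% of all. Without IgG replicate 1, 3 or 4, the count was 78 of 83, 76 of 78 and 79 of 82, against 95.8, 97.2 and 97.0% of all windows. Without IgG replicate 2 it was 60 of 64, against 94.1% of all windows.

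Fmr1, Pprc1 and Spop, among the 8 windows with the lowest p, and Cpsf4, whose pair was called in ES cells, are shown for where in the intron the crosslinks lay. The sequences below are the 100 nt of intron before the upstream site in mm9, with each position that held at least 5 RBM10 crosslinks in capitals.
Fmr1, chrX:65965306-65965405, plus strand: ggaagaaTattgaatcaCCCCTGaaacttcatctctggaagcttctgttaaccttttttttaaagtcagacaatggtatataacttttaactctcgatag
Pprc1, chr19:46142408-46142507, plus strand: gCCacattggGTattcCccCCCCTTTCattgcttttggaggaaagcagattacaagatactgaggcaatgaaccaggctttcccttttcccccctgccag
Spop, chr11:95335445-95335544, plus strand: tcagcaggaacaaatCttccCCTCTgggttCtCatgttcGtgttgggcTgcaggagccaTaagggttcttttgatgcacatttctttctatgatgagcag
Cpsf4, chr5:145939527-145939626, plus strand: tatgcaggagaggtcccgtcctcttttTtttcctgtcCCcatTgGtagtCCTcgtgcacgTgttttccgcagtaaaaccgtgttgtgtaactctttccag
In Fmr1 7 positions from 93 to 78 nt before the site held 445 of 488 crosslinks (91.2%), and in Pprc1 13 positions from 99 to 74 nt held 289 of 327 (88.4%). In Spop 11 positions from 85 to 41 nt held 105 of 144 (72.9%), and in Cpsf4 9 positions from 73 to 40 nt held 102 of 184 (55.4%). Each of these 4 windows had C or T at all but 1 of its marked positions, and none had A. The stretch of pyrimidines directly before the AG carried no marked position in any of the 4.

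None of the 8 pairs with the lowest crosslink p was called in md KO cells. Fmr1, whose product is the fragile X RNA-binding protein, held 46, 53, 335 and 54 crosslinks before its upstream site with RBM10 and 2, 0, 0 and 0 with IgG (edgeR adjusted p = 4.75e-10). Its window passed the count filter through the RBM10 libraries, so this p only ranks it among windows. Its PSI was 68.2, 67.6, 70.5 and 65.1% in md KO and 66.7, 74.8 and 70.1% in md WT, which overlap. The crosslink call was kept for Fmr1 in all 14 other settings run, and was lost in 1 or 2 for each other window of the 8. Pprc1, a coactivator of mitochondrial gene expression, held 33, 65, 205 and 24 crosslinks, and its NAGNAG acceptor stood at 65.4, 64.9, 64.9 and 57.0% in KO and 61.6, 66.2 and 59.8% in WT. Spop, a substrate adaptor of a ubiquitin ligase, held 19, 38, 71 and 16, and stood at 69.6, 64.3, 58.8 and 62.4% against 61.0, 58.4 and 54.8%. Setd5 (18, 47, 79 and 22 crosslinks) and Bptf (16, 32, 46 and 16), both chromatin proteins, differed by -1.48 (SE 1.67) and -0.495 points (SE 2.67). Mtch2, Tial1 and Kirrel, the others of the 8 windows with the lowest p, differed by -0.406 (SE 1.84), 0.0176 (SE 1.62) and -2.25 points (SE 1.67). For these 8 pairs KO and WT overlapped in md cells. In ES cells Tial1 did not overlap, at 6.28, 7.44 and 6.98% in KO against 18.4, 15.0 and 10.5% (adjusted p = 0.305).

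Cpsf4, called in ES cells, also had many crosslinks. Its first window held 16, 60, 79 and 29 crosslinks with RBM10 and 6, 3, 0 and 0 with IgG (log2 fold 3.11, edgeR adjusted p = 1.71e-05). That fold lay below the median of 4.51 over all windows tested. The p of this window, too, only ranks it among the windows that passed the filter. The crosslinks were measured in md cells only, where the Cpsf4 pair was not called. Across wide pairs, an unadjusted p under 0.05 in ES cells was seen in 9.50% with no crosslink before the upstream site, 11.4% with 1 to 9, 11.6% with 10 to 49, and 17.4% with 50 or more (15 of 86). The upstream site was higher in KO in 11 of 23, 41 of 72, 33 of 43 and 11 of 15 of these pairs. The median level of these classes also rose, from 5.81 to 23.8 TPM, and its part in the shares was not tested. Pairs that share a window were each counted, so the members of a class are not independent. The Cpsf4 pairs 26, 75 and 78 nt apart share its first window. All of them stand in the class of 50 or more, under that p and higher in KO. In md cells the same shares were 12.2, 6.88, 10.3 and 9.18%, with no such order. Among close pairs with 50 or more crosslinks, 0 of 29 in md and 1 of 33 in ES cells were under an unadjusted p of 0.05.

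Pairs within genes of 3' site recognition were read for themselves. Their tested pairs in Ptbp1, Sf3a2, Srsf1, Sf1, Celf1, Rbm39, Prpf18, Hnrnpa2b1 and U2af1l4, and those of Numb and Bcl2l1, were not called in either cell type. Numb, the Notch inhibitor whose cassette exon is a known RBM10 target, stood at 79.4 to 83.7% in ES WT and 81.3 to 85.7% in ES KO at its pair 134 nt apart. Ptbp1, the polypyrimidine tract binding protein, stood at 63.4, 63.9, 64.5 and 64.5% in md KO and 66.2, 65.3 and 66.0% in md WT. KO lay below WT in every library, though the difference was only -1.76 points (SE 1.53). Rbm39, a relative of U2AF2, stood at 53.1, 48.6 and 50.4% in ES KO and 44.9, 47.7 and 46.0% in ES WT at sites 18 nt apart (4.51 points, SE 2.30, adjusted p = 0.471). The widest pair of Celf1, a regulator that binds GU-rich RNA, stood at 22.8, 12.7 and 12.2% in ES KO and 24.97, 31.1 and 30.02% in ES WT, without overlap (-12.8 points, SE 3.71, adjusted p = 0.238). Hnrnpa2b1, which encodes an abundant nuclear RNA-binding protein, stood at 17.4, 19.0, 21.6 and 20.3% in md KO and 13.9, 14.6 and 14.5% in md WT (adjusted p = 0.491).

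The RNA levels of the recognition genes themselves were compared last, on the log2(TPM + 1) scale, where the fold of a low gene is understated. In bulk RNA, fewer cells with a transcript and less of it per cell cannot be told apart. Of 44 listed genes 42 were tested. In md cells none was called by limma, against 0.0165% of 12090 genes, and 4 had an unadjusted p under 0.05 (Sf3b3, Hnrnpa2b1, U2af2 and Hnrnpa1), against 6.86% of all genes. All 4 lay lower in KO. U2af2, the large U2AF subunit, was at 141, 143, 147 and 108 TPM in KO and 185, 177 and 174 TPM in WT (-0.42, SE 0.13, adjusted p = 0.651). Of the 42, 14 were above 0, with a median difference of -0.14 beside 0.01 over all genes.

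In ES cells 5 of the 42 were called, against 12.3% of 12860 genes, and 20 had an unadjusted p under 0.05, against 34.1%. Rbm10 itself fell by 2.74 on the log2 scale (SE 0.09, adjusted p = 6.69e-05). The 4 that rose were Phf5a, Sf1, Rbm17 and Sf3b4. Phf5a, a small SF3B protein at the branch point, was at 209, 255 and 221 TPM in KO and 150, 133 and 158 TPM in WT (0.63, SE 0.11, adjusted p = 0.0249). Sf1, the first branch point binder, was at 391, 402 and 441 TPM against 302, 298 and 326 TPM (0.41, SE 0.09, adjusted p = 0.0344). Rbm17 rose by 0.42 and Sf3b4, another SF3B subunit, by 0.47 (adjusted p = 0.0357 and 0.0427). Of the 42, 33 were above 0, with a median of 0.22 beside 0.03 over all genes. The counts that follow are given without the share of all genes called in the same setting, so they do not set the list apart. The count called was 20 without ES KO replicate 1. It was 1 without ES KO replicate 2 or 3, or ES WT replicate 1 or 2, and 1 with the replicate block. It was 5 without ES WT replicate 3, where Sf3b4 was lost (adjusted p = 0.0533) and another of the 42 was gained.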

How the data were processed

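The members and gene lists were chosen with earlier results of these data known. The 8 iCLIP files hold counts of crosslinks at each position and strand, deposited after mapping to mm9 per the labels. The 13 RNA-seq libraries were deposited by the authors as TPM of transcripts, with a table for each cell type. The builds mm9 and mm10 stand in the submitters' processing notes. Neither the quantifier nor the annotation release is given in the sources used here. Identifiers matched GENCODE vM1 for 84877 of 100249 transcripts (84.7%), which held 91.1% of the TPM in md and 86.7% in ES cells. Transcripts that were not joined count for neither site, and PSI depends on how reads were divided among transcripts. There were 0 columns of values left unused.

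PSI was tested with limma 3.58.1 (R 4.3.3, 2-sided) in 1 fit of alternative 3' sites, alternative 5' sites and cassette exons, for each cell type, with Benjamini-Hochberg adjustment over all of them. A call needed an adjusted p under 0.05 and a difference of 10 points. Gene TPM was tested with limma (trend) on log2(TPM + 1), for genes at 1 TPM in at least 3 libraries. Crosslink counts were tested with edgeR 4.0.16 (quasi-likelihood, filterByExpr), and with DESeq2 1.42.0 as an alternative. The scripts were tested on simulated data. Python 3.11.15, pandas 2.3.3, numpy 2.4.6 and pysam 0.24.0 were used.

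Named pairs were those called, up to 5 per class and cell type with the lowest unadjusted p among those at 10 points or more without overlap, the 8 with the lowest crosslink p, the 5 close pairs with the highest TPM and a PSI between 30 and 70%, and pairs of recognition genes. Some pairs the rule takes are not reported here. The pairs shared by both cell types were picked after their values were seen. Each RBM10 replicate had its own IgG control per the labels, so the numbers pair the iCLIP libraries. Deviations of same-numbered libraries correlated at 0.116, 0.192, 0.156 and 0.074.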

Additional observations from a re-analysis of the deposited data

Results flagged for a closer look

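Of 98 groups of 4 libraries checked, 16 held a library far from the other 3. In 7 of the 16, all with IgG, a single library was above 0, which meets the criterion by construction. For groups without such zeros chance alone marks about 1 in 20. Among md KO clones the highest PSI stood apart in Trp53 (13.4%, others 10.5 to 11.0%), Bptf (85.7%, others 77.4 to 78.7%), the U2af1l4 pair 271 nt apart (100.0%, others 65.2 to 70.8%) and Stradb (54.97%, others 46.1 to 46.9%). In Pprc1 the lowest stood apart at 57.0% (others 64.9 to 65.4%). In TPM the highest md KO clone of Hnrnpa2b1 stood at 705 (others 523 to 531) and the lowest of U2af2 at 108 (others 141 to 147).

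With RBM10, Pprc1 held 72.0 crosslinks per 1000000 of the library in 1 library and 22.8 to 30.98 in the others, and Kirrel 40.8 against 9.87 to 12.9. With IgG, 1 library alone held any crosslink before the upstream site of Elf2 (0.452 on that scale), Fmr1 (2.07), Kirrel (2.07), Spop (1.04), Bptf (1.04), Mtch2 (1.04) and Setd5 (1.04). In those windows the other 3 IgG libraries were at 0.

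The KO effects differed between ES and md cells for 3 pairs, by a test of the difference itself. These were Trp53 (16.4 points higher in ES), Cpsf4 sites 52 nt apart (25.1 points higher) and Fam160a2 (-32.7 points).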

How the results depend on the processing

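The count of called pairs in md cells was 0 under the alternatives run, except 1 (Glyr1) with no limit on mean PSI. The exon 3 and exon 9 clones were set apart after the data were seen. The 2 ES pairs became 7 on the logit scale (5 higher, 2 lower), 7 at 5 TPM or more, 1 above 0 TPM, and 0 to 1 without any 1 library. The 3 differences between cell types became 1 on the logit scale, 1 above 0 TPM, and 0 to 12 without any 1 library. The RNA-seq numbers do not pair the libraries: same-numbered deviations correlated at -0.048, 0.020 and -0.066 in md and 0.069, -0.119 and -0.038 in ES cells. With a replicate block the counts were 0 pairs in md, 0 in ES and 0 differences, and 1 of the recognition genes in ES. The iCLIP block gave 40 windows. The 42 higher windows became 7 with TMM and 5 with DESeq2, against 22.0 and 17.1% of all windows. They became 794 of 1150 at 10 crosslinks or more and 535 of 2627 at 1 or more, against 73.9 and 17.5%. With each position counted once they were 11 of 13 (86.5% of all windows), and in 50 nt 3 of 4 (81.6%). With pairs 1 and 2 alone they were 93 of 96 (94.9%), and without any 1 library 38 to 79 (94.1 to 97.2%). TMM, DESeq2 and the block tested 44 windows as before, and the other settings changed how many were tested. The 5 recognition genes in ES became 8 at 5 TPM, 2 at any value, 2 after quantile normalization, and 1 to 20 without any 1 library. These gene counts, too, are given without the share of all genes called in the same setting. Median PSI of close pairs moved to 56.2% (md) and 58.6% (ES) with the border at 30 nt. The cause of the other moves was not tested. Among single pairs and genes, 1263 values kept their side of the threshold, 93 lost it, 10 gained it and 9 levels moved, and none turned direction. RNA-seq depth is unknown.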

Other observations

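Stradb, Pacsin3, Fam160a2 and Suv420h2 were the 4 genes with a pair at an unadjusted p under 0.05 in both cell types and opposite directions, picked after their values were seen. Stradb, a pseudokinase partner of LKB1, stood at 46.6, 54.97, 46.1 and 46.9% in md KO and 56.1, 57.8 and 62.8% in md WT, but at 100, 85.1 and 100% in ES KO and 82.2, 86.3 and 76.8% in ES WT. Pacsin3, an endocytic adaptor, stood at 79.4, 81.2, 77.3 and 80.5% in md KO and 71.3, 78.03 and 69.8% in md WT, and at 71.4, 52.6 and 50.5% in ES KO and 67.9, 78.5 and 76.2% in ES WT. The Suv420h2 pair 35 nt apart stood at 6.21, 1.73, 0 and 10.3% in md KO and 18.1, 18.8 and 9.12% in md WT, and at 32.1, 33.9 and 34.1% in ES KO and 21.3, 25.5 and 30.03% in ES WT. The groups overlapped in the ES values of Stradb and Pacsin3 and in the md values of Pacsin3 and Suv420h2.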
